A study of Homo sapiens with 12 samples.

Results

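The clustered protocadherins are cell-surface adhesion proteins encoded side by side on human chromosome 5 in the alpha, beta and gamma clusters. The 53 genes described here were the protein-coding genes whose symbols start with PCDHA, PCDHB, PCDHGA, PCDHGB or PCDHGC followed by a number, or by C and a number, out of 58219 genes in the expression table. They comprised 15 alpha, 16 beta and 22 gamma genes. All lie on the plus strand of chromosome 5 in GRCh38, the alpha cluster at 140786136 to 141012347, the beta cluster at 141051135 to 141249365 and the gamma cluster at 141330571 to 141512981.

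Poly(A) RNA had been sequenced from H9, an established line of human embryonic stem cells, of the genotypes SOX21-/- and wild type, after 0, 4 and 8 days of neural differentiation. The SOX21 protein is a SOX-family transcription factor found in neural progenitors. At each day there were 2 SOX21-/- libraries, S13 and S23, and 2 wild-type libraries, WT1 and WT2, which made 12 libraries in 6 groups. How the mutation was made, the agents used to differentiate the cells, and whether libraries of 1 group are separate clones or cultures are not stated in the sources used here. The p-values therefore speak only to the spread among these libraries, which may be technical.

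Protocadherins of the alpha and gamma clusters each join their own large variable exon, which encodes the outer cadherin repeats, the membrane span and a short tail, to 3 small constant exons shared by the whole cluster. Beta genes have no constant exons and are encoded by a lone exon each. Promoter choice differs from neuron to neuron, with CTCF and cohesin looping a chosen promoter to a distant enhancer, and the combination of proteins made gives each neuron a surface identity through like-to-like binding. The last alpha and gamma genes, called C-type (PCDHAC1, PCDHAC2, PCDHGC3, PCDHGC4 and PCDHGC5), are known in mouse for a more constant expression between neurons of a type.

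Because of the shared exons, reads from one member can come from several. In the GENCODE 29 transcripts, 2836 words of 31 bases occurred in every one of the alpha genes and 2151 in every one of the gamma genes, against 0 in the beta genes. The share of a gene's words that another member also held had a median of 53.6% among alpha genes (21.7% to 71.5%), 44.9% among gamma genes (32.8% to 73.4%) and 20.0% among beta genes (0.0856% to 56.1%). Of the 15 alpha genes 14 ended at the same base, 141012344, and of the 22 gamma genes 21 ended at 141512979. A level of an alpha or gamma gene therefore rests on how Salmon divided reads of the constant exons, and each such value is uncertain, while the beta genes had a median of 75.2% of words found in no other gene.

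**Figure D1:**
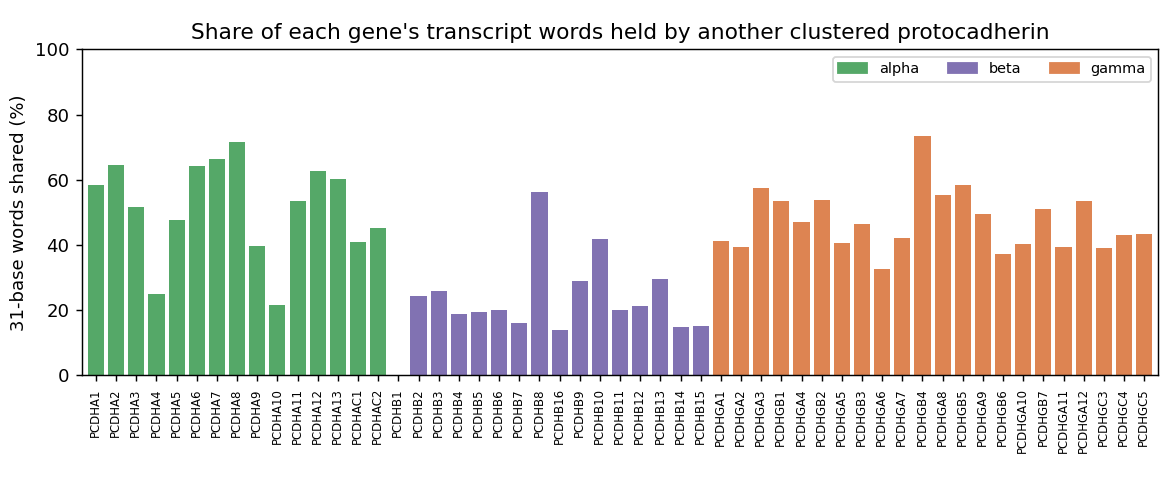
Percentage of the 31-base words of each gene's GENCODE transcripts that also occur in another clustered protocadherin, for all 53 genes in chromosomal order within the alpha (green), beta (purple) and gamma (orange) clusters. The beta genes have a median of 20.0%, the lowest of the 3 clusters, and PCDHB1 is close to 0.

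The start of most of these genes carries a short element that is nearly the same within a cluster, and the stretch around it is shown for members whose levels are described below, and for PCDHA12 to set beside PCDHA2. Promoters were taken from RefSeq (GRCh38.p14), as the 250 bases before the annotated start, for 47 of the 53 genes. Capitals mark the letters searched for, GATGTCGCT in alpha, GTGGCGCT in beta and GCCGCTGT in gamma promoters, which were chosen after these promoters had been read. All sequences are on the plus strand and stop before the GENCODE gene.
PCDHA2, chr5:140794770-140794818: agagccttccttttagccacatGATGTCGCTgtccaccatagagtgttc
PCDHA12, chr5:140875233-140875281: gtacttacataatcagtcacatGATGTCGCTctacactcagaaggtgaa
PCDHB2, chr5:141094534-141094577: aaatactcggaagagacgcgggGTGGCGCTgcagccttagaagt
PCDHB3, chr5:141100383-141100430: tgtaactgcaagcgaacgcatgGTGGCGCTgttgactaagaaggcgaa
PCDHB5, chr5:141135169-141135205: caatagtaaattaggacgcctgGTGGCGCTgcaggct
PCDHB15, chr5:141245304-141245348: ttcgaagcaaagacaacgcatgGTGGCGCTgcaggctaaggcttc
PCDHGB6, chr5:141407916-141407963: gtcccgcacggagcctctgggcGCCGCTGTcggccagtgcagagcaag
PCDHGC3, chr5:141475872-141475919: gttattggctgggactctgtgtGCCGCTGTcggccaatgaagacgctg
PCDHGC4, chr5:141484944-141484991: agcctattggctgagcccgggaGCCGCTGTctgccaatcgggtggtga

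On either strand, GATGTCGCT was found in 9 of 13 alpha promoters and in 0 of 14 beta and 0 of 20 gamma promoters, against 0.0854% of all 35116 promoters. GTGGCGCT was found in 12 of the 14 beta promoters and in 0 of the alpha or gamma ones, against 0.94% of all promoters. GCCGCTGT was found in 11 of the 20 gamma promoters and in 0 of the others of the family, against 1.23% of all. The variant GTCGCTGT, which overlaps GATGTCGCT where that is followed by GT, was found in 6 gamma and 5 alpha promoters, against 0.476% of all. PCDHB5, which differed between the genotypes as described below, carried the same GTGGCGCT letters as PCDHB2, PCDHB3 and PCDHB15, which did not pass that test at any day.

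Levels were given in TPM, each gene's length-adjusted share of the transcripts of a library, which does not keep the number of reads, and library depth is unknown. Genes at 1 TPM or more in at least 2 libraries were tested, which left 24248 genes and 34 of the 53 protocadherins: 9 alpha, 13 beta and 12 gamma genes. Of those 34, 16 had no library at 1 TPM at day 0 and passed only through days 4 and 8, so a change over days was built into their choice. The other 19 (6 alpha, 3 beta and 10 of the 12 PCDHGA genes) did not pass, and the highest value any of them reached was 1.24 TPM, for PCDHA6. Fold changes are differences of log2(TPM + 1) and so understate the change of low genes, and adjusted p-values are from limma over all 24248 genes, with a call at 0.05.

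Facts of the libraries that bear on what follows were these. SOX21 mRNA was at 1.62 and 1.84 TPM in libraries S13 and S23 and 1.26 and 1.39 TPM in libraries WT1 and WT2 at day 0, at 162 and 143 TPM in SOX21-/- against 156 and 166 TPM in wild type at day 4, and at 253 and 69.9 TPM in SOX21-/- against 129 and 100.04 TPM in wild type at day 8, so the mRNA level did not separate the genotype labels. The day 0 libraries stood apart: nuclear protein-coding genes held 55.9% to 56.4% of their TPM, against 83.5% to 87.1% at days 4 and 8. Of 6 pluripotency genes, 5 were lower at day 4 than at day 0 and 1 higher, each called in both genotypes. POU5F1, the factor OCT4, was at 1507 and 1679 TPM in libraries S13 and S23 and 1743 and 1744 TPM in libraries WT1 and WT2 at day 0 and at most 32.4 TPM in any later library. LIN28A, an RNA-binding protein gene, went up and was at 148 to 176 TPM at day 0 and 608 to 952 TPM later. The summed level of 7 neural progenitor genes was at most 91.5 TPM at day 0 and at least 820 TPM later.

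The family was detected before differentiation, at a level dominated by few members. In undifferentiated cells PCDHAC2, the last alpha gene, held 47.9% and 59.8% of the summed alpha TPM in libraries S13 and S23 and 58.5% and 67.9% in WT1 and WT2. PCDHB2 held 46.1% to 49.0% of the beta sum in all 4 day 0 libraries, and PCDHGC3 18.6% to 38.3% of the gamma sum. Of the 53 members, between 4 and 5 alpha, 4 and 6 beta and 4 and 5 gamma genes reached 1 TPM in a day 0 library.

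**Figure D2:**
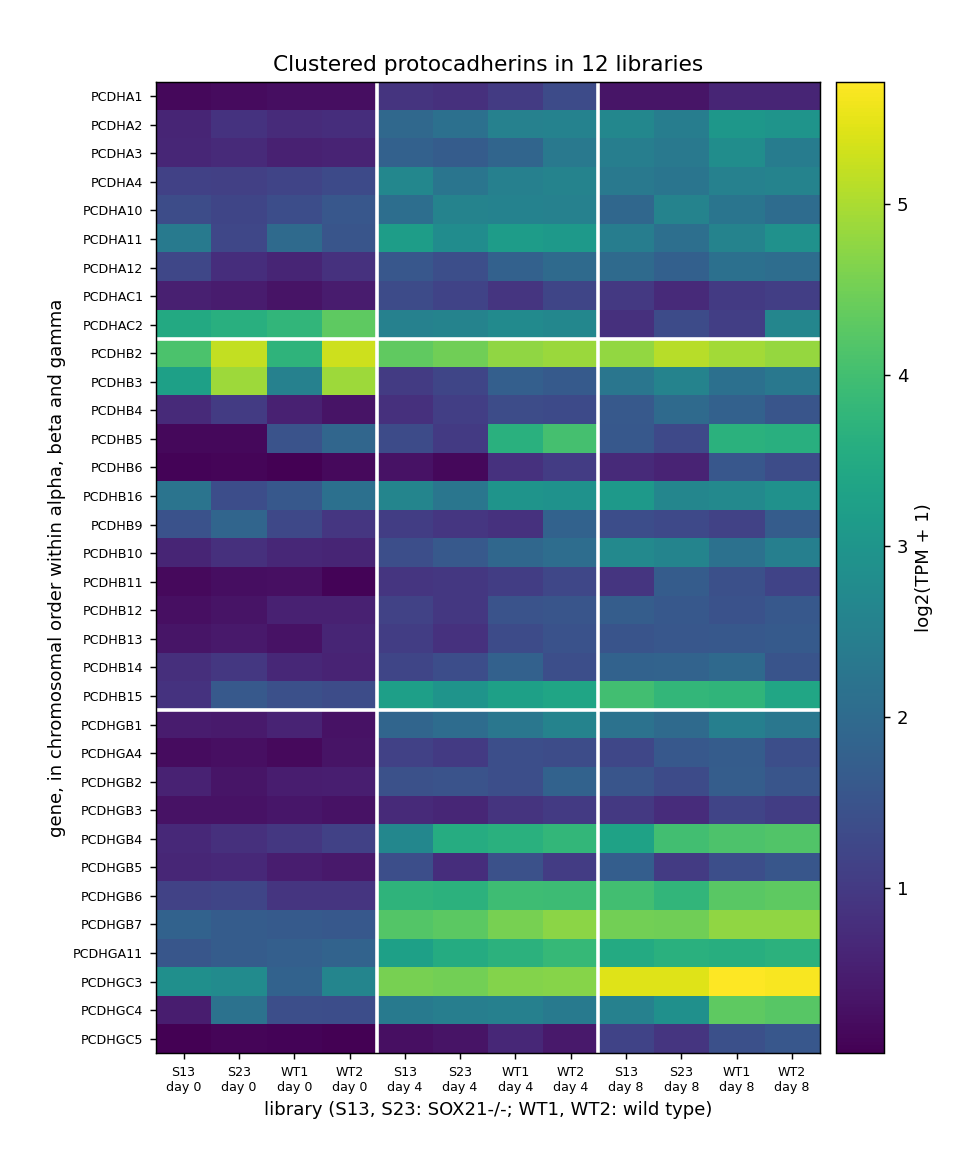
Level of the 34 tested genes as log2(TPM + 1), with genes in chromosomal order down the page and the 12 libraries across it, grouped by day; white lines separate the days and the clusters. PCDHAC2, PCDHB2 and PCDHB3 are bright at day 0, the PCDHGB genes and PCDHGC3 at days 4 and 8, and PCDHB5 is dark in S13 and S23 at each day.

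By cluster, the gamma genes gained most over the 8 days. The summed gamma level was 16.4 and 19.1 TPM in libraries S13 and S23 at day 0, 82.7 and 89.4 TPM at day 4, and 121 and 126 TPM at day 8. In WT1 and WT2 it was 13.6 and 16.5 TPM at day 0, 104 and 111 TPM at day 4, and 162 and 161 TPM at day 8. The mean gamma sum at day 4 was 4.85 times that at day 0 in SOX21-/- and 7.16 times in wild type, with all 4 SOX21-/- values at days 4 and 8 under the wild-type values of the same day.

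The summed alpha level was 21.5 and 18.9 TPM in libraries S13 and S23 at day 0, 32.6 and 30.1 TPM at day 4, and 29.9 and 30.0 TPM at day 8. In WT1 and WT2 it was 21.8 and 27.9 TPM at day 0, 37.3 and 40.0 TPM at day 4, and 37.9 and 40.7 TPM at day 8. As with gamma, the SOX21-/- alpha sums lay under the wild-type sums of the same day at days 4 and 8.

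The summed beta level at day 0 followed neither genotype nor day: it was 34.2 and 74.5 TPM in libraries S13 and S23 and 26.8 and 78.0 TPM in libraries WT1 and WT2. At day 4 the beta sum was 44.2 and 43.7 TPM in libraries S13 and S23, against 70.0 and 77.5 TPM in libraries WT1 and WT2, and at day 8 it was 73.4 and 77.1 TPM in SOX21-/- against 81.4 and 76.9 TPM in wild type. The beta sums of the genotypes did not overlap at day 4 and overlapped at days 0 and 8.

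**Figure D3:**
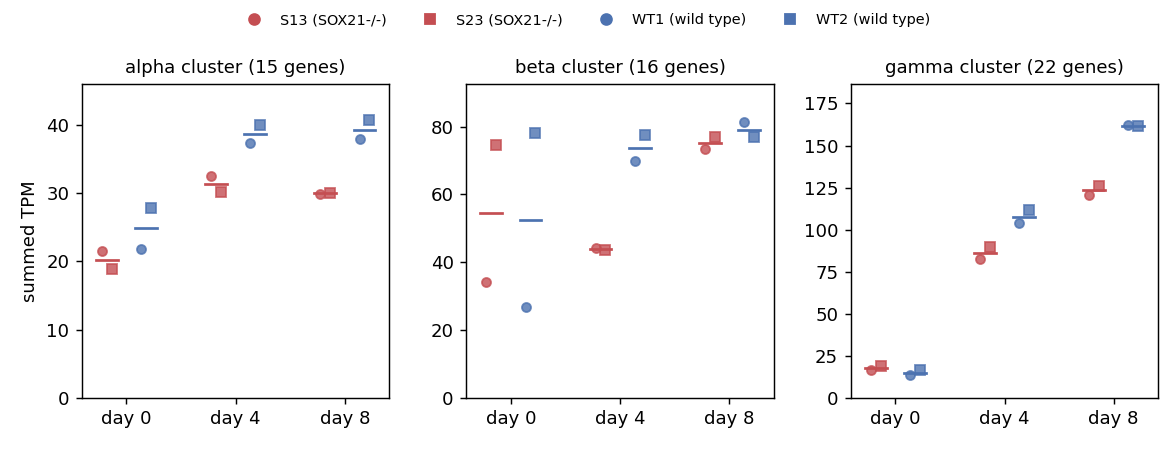
Summed TPM of all members of each cluster in each library, by day, with SOX21-/- libraries in red left of wild-type libraries in blue; bars are group means (n = 2). The gamma sums reach 121 and 126 TPM in libraries S13 and S23 and 162 and 161 TPM in libraries WT1 and WT2 at day 8, and the day 0 beta sums split into S23 and WT2 against S13 and WT1.

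The split within the beta cluster at day 0 was seen in 2 neighbouring genes. PCDHB2 was at 16.2 and 35.5 TPM in libraries S13 and S23 and 12.4 and 38.2 TPM in libraries WT1 and WT2. PCDHB3, the next gene along, was at 8.68 and 28.5 TPM in libraries S13 and S23, against 4.78 and 28.6 TPM in libraries WT1 and WT2. S23 and WT2 were high and S13 and WT1 low for both genes, so that the spread within each genotype was larger than the difference between the genotypes (log2 fold changes 0.13, SE 0.48, and 0.37, SE 0.72; limma adjusted p = 1 for each). By day 4 PCDHB3 was at 1.03 and 1.32 TPM in libraries S13 and S23, against 2.38 and 2.13 TPM in libraries WT1 and WT2, and the split was no longer seen. Its day 8 level was 3.79 and 4.97 TPM in SOX21-/- and 3.40 and 3.93 TPM in wild type. PCDHB2, the highest beta gene in each of the 12 libraries, was at 19.0 and 21.4 TPM in SOX21-/- and 26.5 and 28.0 TPM in wild type at day 4. At day 8 PCDHB2 had 27.0 and 33.2 TPM in SOX21-/- and 29.6 and 27.1 TPM in wild type, and it was called in no comparison. The labels name no batch that would pair S23 with WT2, and whether preparation played a part was not tested. A fit of 1 difference shared by all days found 0 protocadherins and 0% of all genes different between S13 and S23. Between WT1 and WT2 it found 0 and 0%. Unadjusted limma p-values under 0.05 numbered 3 and 0 among the members, against 6.24% and 3.39% of all genes tested. Such a fit averages over the days, so it cannot decide on a split at day 0 only.

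From day 0 to day 4 most tested members were called higher in both genotypes. In SOX21-/-, 21 of 34 rose and 1 fell, against 48.1% of all genes tested that rose and 12.5% that fell. In wild type, 28 of 34 rose and 2 fell, against 54.3% and 11.4% of all genes. The 2 steps have no library in common. The median log2 fold change of the tested members was 0.78 in SOX21-/- and 1.08 in wild type, beside 0.72 and 0.91 for all genes tested. These counts and medians include the 16 members that passed the filter only through days 4 and 8, for which a rise was favoured by their choice.

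Since the median of all genes moved too, and the day 0 libraries differ in makeup as given above, the count depended on the scaling. After median-of-ratios scaling, which sets the median gene to no change, 9 members were higher and 4 lower in SOX21-/- and 13 higher and 2 lower in wild type, of 32 tested. With TPM rescaled to nuclear protein-coding genes only, 19 were higher and 3 lower in SOX21-/- and 27 higher and 2 lower in wild type, of 39 tested. Of the calls of the gamma cluster that were still tested after it, 5 of 8 in SOX21-/- and 7 of 9 in wild type kept their direction and call under that median-of-ratios scaling, against 2 of 6 and 3 of 8 for alpha and 3 of 7 and 5 of 11 for beta.

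The largest gains of that step were in the gamma B genes, variable genes of the gamma cluster. PCDHGB6 was at 1.23 and 1.33 TPM in libraries S13 and S23 at day 0 and at 12.3 and 11.9 TPM at day 4 (log2 fold change 2.52, SE 0.13, limma adjusted p = 8.1e-07). In WT1 and WT2 it was at 0.873 and 0.885 TPM at day 0 and at 14.5 and 14.3 TPM at day 4 (3.03, SE 0.13, adjusted p = 3e-07). The days did not overlap in either genotype, and the 2 libraries of each group lay close together.

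PCDHGB7, the last gamma B gene, was at 2.51 and 2.24 TPM in libraries S13 and S23 at day 0 and at 17.4 and 18.6 TPM at day 4, and in WT1 and WT2 at 2.11 and 2.03 TPM and at 22.6 and 25.4 TPM. Its log2 fold changes were 2.49 in SOX21-/- and 3.03 in wild type (SE 0.11, limma adjusted p = 4.8e-07 and 1.7e-07). PCDHGB6 and PCDHGB7 shared 2475 of their 31-base words with each other, of which 2151 occurred in every gamma gene. The part of shared reads in their likeness was not tested. Next in size in SOX21-/- were PCDHGB4 (2.35, adjusted p = 0.000174), PCDHB15 (1.86, adjusted p = 0.00024) and PCDHGA11 (1.77, adjusted p = 1.1e-05). In wild type they were PCDHGB4 (2.68, adjusted p = 7e-05), PCDHGC3 (2.45, adjusted p = 1.6e-05) and PCDHB5 (2.15, adjusted p = 4.7e-05). Each of these calls held with any 1 library left out.

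PCDHB15, the third highest beta gene by its mean over all libraries, was at 0.817 and 2.09 TPM in libraries S13 and S23 at day 0, 8.40 and 6.86 TPM at day 4, and 14.9 and 12.8 TPM at day 8. Wild-type libraries had 1.68 and 1.56 TPM at day 0, 8.64 and 9.34 TPM at day 4, and 12.4 and 9.48 TPM at day 8. Its rise to day 4 was called in wild type too (1.93, limma adjusted p = 0.00017), and its genotypes overlapped at day 0, while SOX21-/- was the lower one at day 4 and the higher one at day 8, without a call.

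After PCDHAC2, the highest alpha genes by that mean were PCDHA11 and PCDHA2. PCDHA11 was at 4.23 and 1.35 TPM in libraries S13 and S23 at day 0, 8.21 and 6.0 TPM at day 4, and 4.40 and 3.29 TPM at day 8. Its levels in WT1 and WT2 were 2.97 and 1.90 TPM at day 0, 8.02 and 7.46 TPM at day 4, and 5.0 and 6.5 TPM at day 8. It was called higher at day 4 in both genotypes, by 1.19 on the log2 scale in SOX21-/- (limma adjusted p = 0.0193) and by 1.36 in wild type (0.00946). Neither call was kept after median-of-ratios scaling, and on nuclear protein-coding genes only the wild-type call was kept. With 1 library left out, the change ran from 0.62 to 1.77 in SOX21-/- and from 1.14 to 1.59 in wild type. The genotypes of PCDHA11 overlapped at days 0 and 4.

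PCDHA2 had 0.543 and 0.823 TPM in libraries S13 and S23 at day 0, 2.88 and 3.36 TPM at day 4, and 5.32 and 4.45 TPM at day 8. Its wild-type levels were 0.665 and 0.714 TPM at day 0, 4.76 and 4.83 TPM at day 4, and 7.26 and 6.81 TPM at day 8. The rise to day 4 was called in both genotypes (1.29 in SOX21-/-, limma adjusted p = 0.000187, and 1.78 in wild type, adjusted p = 2.4e-05). PCDHA2 was among the members tested only through days 4 and 8. At days 4 and 8 its genotypes did not overlap, without a call (log2 fold changes -0.49 and -0.45, SE 0.17, adjusted p = 0.198 and 0.228).

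Against that trend, PCDHB3 fell in both genotypes, by 2.96 on the log2 scale in SOX21-/- (SE 0.72, limma adjusted p = 0.00662) and by 2.01 in wild type (adjusted p = 0.0358). These falls rest on the 2 libraries that were high at day 0: without S23 at day 0 the SOX21-/- change was -2.15 (adjusted p = 0.0546), and without WT2 at day 0 the wild-type change was -0.83 (adjusted p = 0.245). PCDHAC2 was at 10.3 and 11.3 TPM in libraries S13 and S23 at day 0 and at 4.76 and 4.94 TPM at day 4. In WT1 and WT2 it was at 12.8 and 18.9 TPM at day 0 and at 5.70 and 5.32 TPM at day 4. The days did not overlap in either genotype, and the fall was called in wild type only, by 1.35 on the log2 scale (SE 0.44, adjusted p = 0.0239). That call was lost without WT2 at day 0 (adjusted p = 0.13) and without WT1 or WT2 at day 4 (0.0696 and 0.0848).

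From day 4 to day 8 fewer members changed, and those of the gamma C genes led in wild type. In SOX21-/-, 5 of 34 rose and 1 fell, against 19.0% and 7.15% of all genes tested. In wild type 3 rose and 0 fell, against 7.62% and 4.99% of all genes, and 8 of the members had an unadjusted limma p under 0.05, against 27.8% of all genes. The SOX21-/- rises were PCDHB10 (log2 fold change 1.14, limma adjusted p = 0.00439), PCDHGC3 (0.91, 0.0173), PCDHB4 (0.85, 0.0284), PCDHGC5 (0.74, 0.0288) and PCDHB12 (0.59, 0.0408), and the fall was in PCDHAC2 (-1.47, 0.0403). The wild-type rises were the 3 gamma C genes PCDHGC4 (1.83, 0.0331), PCDHGC3 (1.02, 0.0207) and PCDHGC5 (0.94, 0.0212). PCDHGC5 reached 1 TPM only at day 8, so a rise to that day was favoured by its choice for testing.

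These counts were sensitive to single libraries. In SOX21-/- 1 member was called without S13 at day 4, 3 without S23 at day 4, and 2 without S13 or S23 at day 8. In wild type 0 were called without WT1 or WT2 at day 4 or without WT1 at day 8, and 1 without WT2 at day 8. Median-of-ratios scaling left 1 rise, in PCDHB10, and 1 fall, in PCDHAC2, in SOX21-/-, and rescaling to nuclear protein-coding genes gave 10 rises and 1 fall.

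The C-type genes differed among themselves over the days. PCDHGC3, known in mouse for effects on dendrite growth, was at 6.27 and 5.84 TPM in libraries S13 and S23 at day 0, 22.4 and 21.9 TPM at day 4, and 42.4 and 42.7 TPM at day 8. In WT1 and WT2 it was at 2.53 and 5.18 TPM at day 0, 24.2 and 24.6 TPM at day 4, and 51.6 and 49.9 TPM at day 8, which made it the highest gamma gene of that day in each of the 4 libraries. Day 8 was above day 4, and day 4 above day 0, in each genotype.

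PCDHGC5 was low at first, at 0.0371 and 0.0744 TPM in libraries S13 and S23, against 0.0720 and 0.0372 TPM in libraries WT1 and WT2 at day 0. Its level was 0.205 and 0.270 TPM in SOX21-/- against 0.588 and 0.348 TPM in wild type at day 4, and 1.27 and 0.881 TPM in SOX21-/- against 1.68 and 1.96 TPM in wild type at day 8. PCDHAC1 stayed low, at 0.440 and 0.384 TPM in libraries S13 and S23 and 0.252 and 0.382 TPM in libraries WT1 and WT2 at day 0, 1.52 and 1.26 TPM in SOX21-/- against 0.889 and 1.32 TPM in wild type at day 4, and 0.968 and 0.639 TPM in SOX21-/- against 0.996 and 1.12 TPM in wild type at day 8. PCDHAC2 went the other way and was at 0.778 and 1.51 TPM in libraries S13 and S23 and 1.13 and 5.22 TPM in libraries WT1 and WT2 at day 8, where WT2 was far above WT1. None of these 4 genes differed between the genotypes by limma at any day (lowest adjusted p = 0.324, for PCDHGC5 at day 8).

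PCDHGC4, known in mouse for the survival of interneurons, was the C-type gene with the largest gap between the genotypes. On day 8 its level was 4.79 and 6.44 TPM in libraries S13 and S23, against 18.7 and 17.9 TPM in libraries WT1 and WT2, without overlap. On day 4 its level was 4.19 and 4.55 TPM in SOX21-/- against 4.72 and 4.18 TPM in wild type, with overlap, and on day 0 it was 0.413 and 3.52 TPM in SOX21-/- against 1.62 and 1.60 TPM in wild type, where S13 was low and S23 high. The day 8 log2 fold change was -1.56 (SE 0.44, n = 2 per group) and was not called (limma adjusted p = 0.117), nor was the change of the genotype difference from day 4 to day 8 (-1.54, SE 0.63, adjusted p = 0.273).

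That outcome depended on which libraries shared the estimate of spread. Without S13 at day 0 the day 8 difference of PCDHGC4 was called (-1.56, SE 0.16, limma adjusted p = 0.0083), as it was without S23 at day 0 (adjusted p = 0.00897) and in a fit of days 4 and 8 only (adjusted p = 0.022), which was chosen after the data were seen. It was not called in a fit of the day 8 libraries alone (adjusted p = 0.0936), nor without any 1 of the other 10 libraries (0.144 to 0.331). Of its 31-base words 43.1% occurred in other members, nearly all in the constant exons, and 56.9% in no other gene.

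Between the genotypes, PCDHB5 was the member that limma called, and it was lower in SOX21-/- at each day. It is a beta gene of a lone exon at 141135218 to 141138625 on chromosome 5. The call was 1 of 34 tested members at days 0, 4 and 8, against 0.384%, 0.775% and 2.79% of all genes tested. This result was known when the family was chosen for description.

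PCDHB5 was at 0.119 and 0.122 TPM in libraries S13 and S23 at day 0, against 1.79 and 2.74 TPM in libraries WT1 and WT2. On day 4 its level was 1.53 and 0.995 TPM in SOX21-/- against 11.5 and 15.4 TPM in wild type, and on day 8 it was 2.03 and 1.45 TPM in SOX21-/- against 11.6 and 11.4 TPM in wild type. The genotypes did not overlap at any day, and the highest SOX21-/- value of all days lay between both wild-type values of day 0. The mean SOX21-/- level was 0.0534 of the wild-type mean at day 0, 0.0941 at day 4 and 0.152 at day 8.

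The log2 fold changes of PCDHB5 were -1.53, -2.67 and -2.19 at days 0, 4 and 8 (SE 0.23 at each day; 2 libraries a group; limma adjusted p = 0.0419, 0.00605 and 0.00292). It rose from day 0 to day 4 in both genotypes, by 1.0 on the log2 scale in SOX21-/- (adjusted p = 0.00478) and by 2.15 in wild type, and the difference between these steps was not called (-1.14, SE 0.32, adjusted p = 0.227). The day 0 call was lost when any 1 of the 12 libraries was left out (adjusted p = 0.0574 to 0.153) and with no filter on low genes (0.0511), while the calls at days 4 and 8 held in all leave-outs. In the fit of days 4 and 8 only, the day 4 call was lost (0.0602) and the day 8 call was kept (0.0165). In fits of the 4 libraries of a single day the adjusted p was 0.343, 0.17 and 0.0720 at days 0, 4 and 8. Of the 31-base words of PCDHB5 74.5% were its own, and 21.8% occurred in genes other than the 53 members. The member that shared most with it was PCDHB12 (10.9%). PCDHB12 was at 0.196 and 0.265 TPM in SOX21-/- against 0.464 and 0.464 TPM in wild type at day 0, without overlap. Its level was 1.23 and 0.951 TPM in SOX21-/- against 1.80 and 1.89 TPM in wild type at day 4. At day 8 it was 2.25 and 2.04 TPM in SOX21-/- against 1.76 and 2.01 TPM in wild type.

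**Figure D4:**
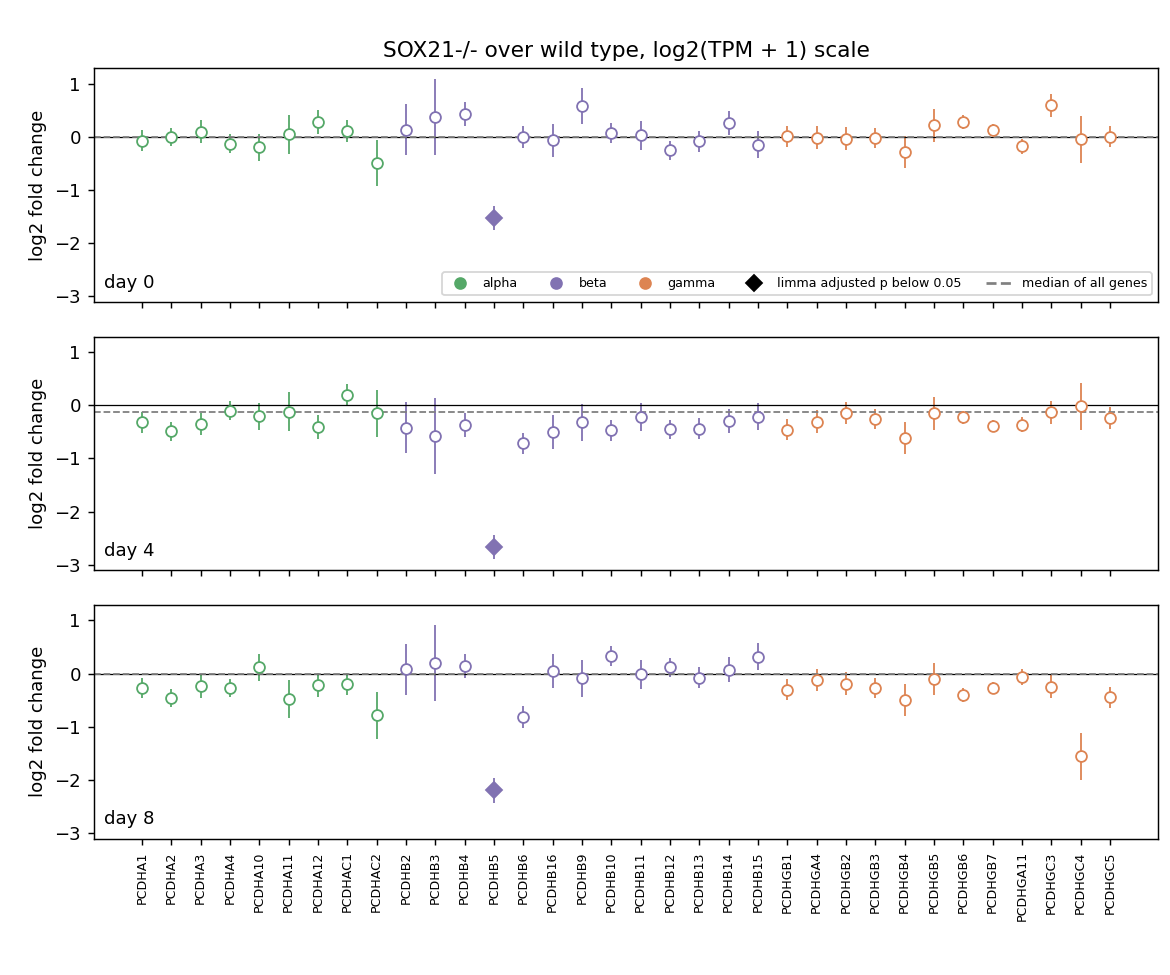
Log2 fold change of SOX21-/- over wild type at days 0, 4 and 8 (top to bottom) for the 34 tested genes in chromosomal order, with bars of 1 SE from limma; filled diamonds have an adjusted p below 0.05, and the dashed line is the median of all genes tested. PCDHB5 lies at -1.53, -2.67 and -2.19, PCDHGC4 at -1.56 at day 8 without a call, and 33 of the 34 genes lie below 0 at day 4.

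Of the genes on either side of PCDHB5, 1 had levels of the same direction at days 4 and 8. PCDHB4, the next gene upstream, was at 0.646 and 1.02 TPM in libraries S13 and S23 against 0.471 and 0.251 TPM in libraries WT1 and WT2 at day 0, at 0.778 and 1.14 TPM in SOX21-/- against 1.57 and 1.47 TPM in wild type at day 4, and at 2.09 and 2.97 TPM in SOX21-/- against 2.51 and 1.88 TPM in wild type at day 8. PCDHB4 was thus higher in SOX21-/- at day 0, lower at day 4 and overlapping at day 8, and was called at none of these days (adjusted p = 1, 0.466 and 0.847). PCDHB6, the next gene downstream, was at 0.0654 and 0.0765 TPM in SOX21-/- against 0.0242 and 0.124 TPM in wild type at day 0, at 0.234 and 0.109 TPM in SOX21-/- against 0.789 and 1.06 TPM in wild type at day 4, and at 0.628 and 0.525 TPM in SOX21-/- against 2.00 and 1.56 TPM in wild type at day 8.

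The values of PCDHB6 did not overlap between the genotypes at days 4 and 8, in the direction of PCDHB5. PCDHB6 reached 1 TPM only in wild-type libraries, so a lower level in SOX21-/- was favoured by its choice for testing. Its mean SOX21-/- level was 0.185 of the wild-type mean at day 4 and 0.323 at day 8, where PCDHB5 had 0.0941 and 0.152. Its log2 fold changes were -0.71 and -0.82 (SE 0.20) and were not called (limma adjusted p = 0.137 and 0.0762). With a pseudocount of 0.1, which understates low genes less, they were -1.94 and -1.47 (SE 0.50, adjusted p = 0.137 and 0.225). At day 8 it was called in 3 other settings, with no filter on low genes (adjusted p = 0.0429), without the variance trend (0.0229) and on nuclear protein-coding genes only (0.0377). Whether PCDHB6 differed at day 8 therefore depends on the setting.

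**Figure D5:**
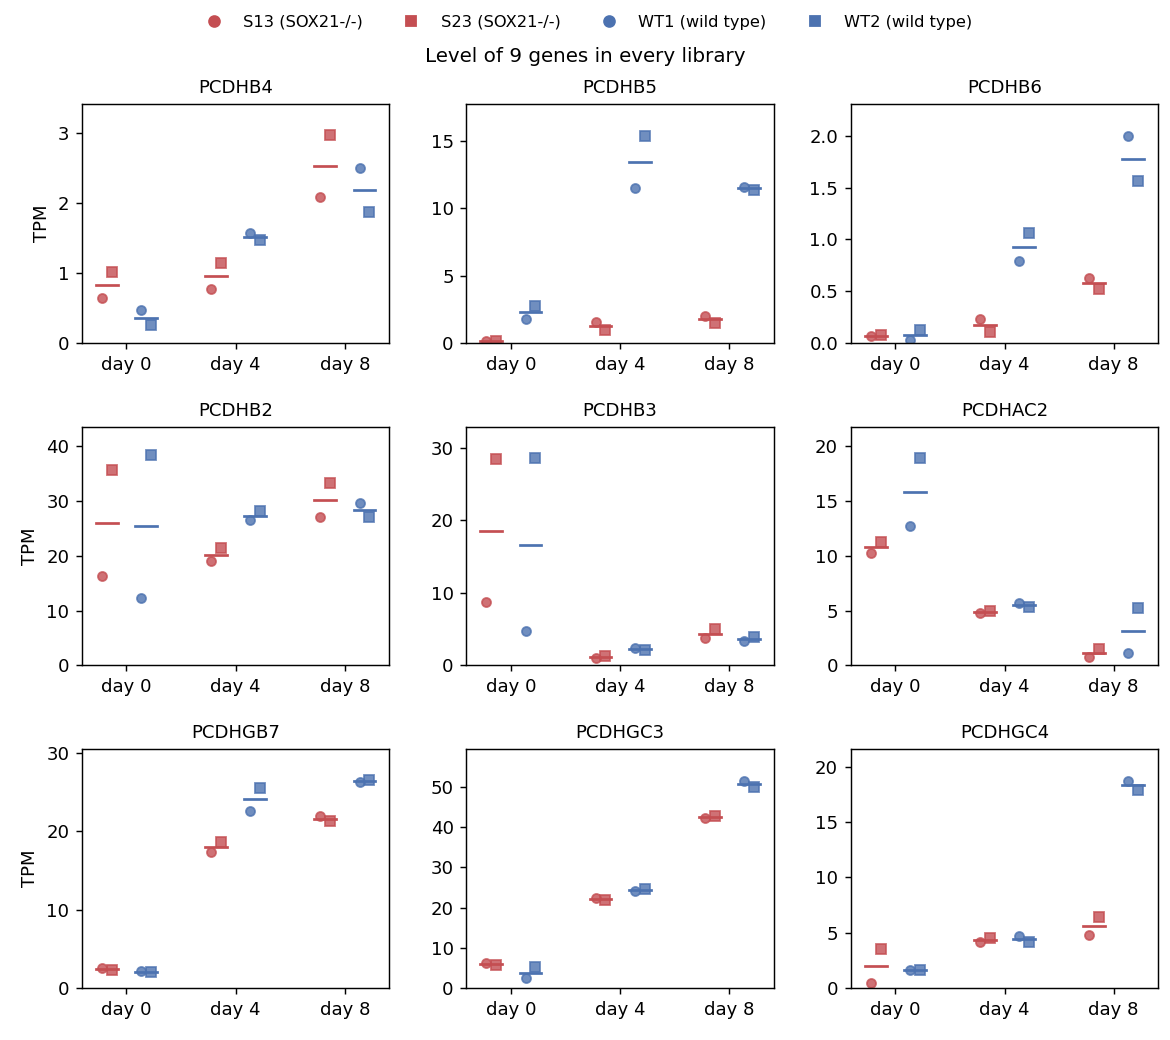
TPM of 9 genes in each library by day, with SOX21-/- libraries in red left of wild-type libraries in blue and bars at group means (n = 2). PCDHB5 is low in S13 and S23 at each day, PCDHB6 at days 4 and 8 and PCDHGC4 at day 8, while PCDHB2 and PCDHB3 at day 0 are high in S23 and WT2.

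The direction of the genotype difference varied with the day over the 34 tested members, PCDHB5 included. At day 0 they were split, with 17 higher and 17 lower in SOX21-/- and a median log2 fold change of -0.00067, beside 0 for all genes. Libraries of the genotypes did not overlap in 9 members that were lower and 9 that were higher, of 34, against 14.0% and 15.7% of all genes tested. At day 4, 33 of 34 members were lower, with a median of -0.32 beside -0.12 for all genes, of which 15306 of 24248 were lower. After median-of-ratios scaling, which removes the shift of all genes, 27 of 32 members were lower (median -0.20). The libraries did not overlap in 26 members that were lower and 0 that were higher, against 33.8% and 11.1% of all genes. These day 4 counts include PCDHA1, PCDHB6 and PCDHGB3. Each reached 1 TPM only in wild-type libraries, so a lower level in SOX21-/- was favoured by their choice for testing.

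By cluster, the day 4 medians were -0.21 for alpha, -0.44 for beta and -0.25 for gamma, and after median-of-ratios scaling -0.032, -0.30 and -0.16, with all 13 beta genes lower under both scalings. The exception at day 4 was PCDHAC1, with a log2 fold change of 0.19 and overlapping values. At day 8 the clusters parted: all 12 tested gamma genes (median -0.27) and 8 of 9 alpha genes (median -0.27) were lower in SOX21-/-, while 8 of 13 beta genes were higher (median 0.08), beside a median of 0 for all genes. The cluster medians kept these signs after median-of-ratios scaling (-0.27 for gamma, -0.23 for alpha and 0.07 for beta). The libraries did not overlap in 18 members that were lower and 3 that were higher (PCDHB10, PCDHB12 and PCDHB15), of 34, against 21.7% and 21.4% of all genes. The 18 again include PCDHA1, PCDHB6 and PCDHGB3, which were tested only through wild-type libraries.

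Among the gamma genes that were lower without a call at day 8 were PCDHGB6, at 14.9 and 12.7 TPM in libraries S13 and S23 against 18.1 and 18.9 TPM in libraries WT1 and WT2 (log2 fold change -0.40, SE 0.13, limma adjusted p = 0.149), and PCDHGB7, at 21.9 and 21.3 TPM in SOX21-/- against 26.2 and 26.4 TPM in wild type (-0.28, SE 0.11, adjusted p = 0.263). Both were without overlap. Since alpha and gamma genes share constant exons, the members of a cluster are not independent of each other, and a common direction within it is no count of separate events.

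Whether the genotype difference of a member changed between days was tested directly. From day 0 to day 4 it changed in 0 of 34 members, against 0.408% of all genes tested, and from day 4 to day 8 in 0 of 34, against 1.11%. Unadjusted limma p-values under 0.05 were found for 6 of 34 members (PCDHB4, PCDHB5, PCDHB6, PCDHGB6, PCDHGB7 and PCDHGC3, all toward lower in SOX21-/-) in the earlier interval, against 12% of all genes, and for 2 (PCDHB10 and PCDHGC4) in the later one, against 16.4%. Without WT2 at day 0, where PCDHGC3 of WT1 was 2.53 TPM and that of WT2 5.18 TPM, PCDHGC3 was called in the earlier interval (-1.14, SE 0.14, adjusted p = 0.0366) and as higher in SOX21-/- at day 0 (1.0, SE 0.11, adjusted p = 0.0148). Without S13 at day 0, PCDHGC4 was called in the later interval (adjusted p = 0.0497).

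Of 8 genes that mark young neurons, which express clustered protocadherins, 6 were lower and 2 higher in SOX21-/- by fold change at day 4 and likewise at day 8. Their summed level was 156 and 170 TPM in libraries S13 and S23 against 274 and 296 TPM in libraries WT1 and WT2 at day 4, and 287 and 203 TPM in SOX21-/- against 380 and 371 TPM in wild type at day 8, without overlap at either day; at day 0 it was 73.9 and 76.3 TPM in SOX21-/- against 70.6 and 68.5 TPM in wild type. Of the 8, limma called DCX, a microtubule protein of migrating neurons, at day 8 (4.92 and 2.12 TPM in SOX21-/- against 20.7 and 25.7 TPM in wild type, log2 fold change -2.49, adjusted p = 0.00554) and 0 at days 0 and 4. Of all genes tested 2.79% were called at day 8. TUBB3, a neuronal tubulin, held much of the sum, at 59.4 and 89.0 TPM in SOX21-/- against 141 and 157 TPM in wild type at day 4 and 119 and 92.4 TPM in SOX21-/- against 174 and 180.1 TPM in wild type at day 8, without a call (adjusted p = 0.0588 and 0.0833). The RNA-binding genes ELAVL3 and ELAVL4 went the other way at day 8, without a call or overlap. ELAVL3 was at 9.16 and 2.69 TPM in SOX21-/- against 1.5 and 1.4 TPM in wild type (1.32, limma adjusted p = 0.208). ELAVL4 was at 2.95 and 2.05 TPM in SOX21-/- against 0.828 and 0.259 TPM in wild type (1.19, limma adjusted p = 0.0551). It reached 1 TPM only in these SOX21-/- libraries, so it was tested through the group where it was high. In bulk RNA, fewer cells of a type and less RNA per cell cannot be told apart, and the part of this marker difference in the protocadherin levels was not tested.

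Other marker lists were compared by their sums and leading genes. The 7 progenitor genes summed to 820 and 946 TPM in SOX21-/- against 971 and 1015 TPM in wild type at day 4 and to 1688 and 1799 TPM in SOX21-/- against 1512 and 1475 TPM in wild type at day 8, without overlap at either day. By fold change, 4 of the 7 were higher and 3 lower in SOX21-/- at day 4, and 5 were higher and 2 lower at day 8. The 1 gene of that list called at day 4 was LHX2, a forebrain homeobox gene, which was lower (log2 fold change -1.78, limma adjusted p = 0.01). At day 8, 0 were called. The 5 endoderm markers summed to 12.01 and 20.2 TPM in SOX21-/- against 4.23 and 5.20 TPM in wild type at day 4 and to 90.9 and 110.4 TPM in SOX21-/- against 30.1 and 28.97 TPM in wild type at day 8. These sums were nearly all CXCR4, a chemokine receptor that progenitors also express, which was called higher in SOX21-/- at day 4 (1.56, adjusted p = 0.0377) and day 8 (1.74, adjusted p = 0.00949). SOX17 was listed at 0 in all 12 libraries, and FOXA2, GATA4 and GATA6 were at most 0.379 TPM.

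The 5 mesoderm markers summed to at most 2.81 TPM in any library. SOX10, the defining factor of neural crest, was at most 0.817 TPM in any library.

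Genes that act on the family were measured beside it. Of 18 chromatin regulators known to act at these clusters, among them CTCF, the cohesin subunits RAD21, SMC1A and SMC3, and SMCHD1 and SETDB1, which silence them, 0 were called between the genotypes at any day, and 4, 6 and 1 of 18 had an unadjusted limma p under 0.05 at days 0, 4 and 8, against 5.88%, 16.9% and 16.3% of all genes tested. CTCF was at 13.3 and 11.1 TPM in libraries S13 and S23 and 12.3 and 11.4 TPM in libraries WT1 and WT2 at day 0, and at 46.6 and 49.4 TPM in SOX21-/- against 51.0 and 52.7 TPM in wild type at day 4. From day 0 to day 4, 16 of the 18 rose and 1, the corepressor TRIM28, fell, in each genotype, against 48.1% of all genes that rose in SOX21-/- and 54.3% in wild type. The median log2 fold changes were 1.27 in SOX21-/- and 1.53 in wild type, beside 0.72 and 0.91 for all genes. Of 14 partners of the cytoplasmic domains, such as the kinases PTK2 and PTK2B and the WAVE complex, 0 were called between the genotypes at any day, with 0, 3 and 4 of 14 at an unadjusted p under 0.05, beside the same shares of all genes.

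The genes around the clusters and the protocadherins outside them were also compared, with PCDH1 and PCDH12, on chromosome 5, counted in both lists. Of 18 neighbours on chromosome 5, 17 were tested and 1 was called, at day 4, against 0.775% of all genes tested. This was FCHSD1, an actin-regulating gene, at 8.58 and 9.07 TPM in SOX21-/- against 17.2 and 15.4 TPM in wild type (log2 fold change -0.81, limma adjusted p = 0.0469). Of 12 protocadherins outside the clusters 9 were tested and 2 were called, both at day 8, against 2.79% of all genes tested. PCDH18 was at 63.7 and 59.0 TPM in libraries S13 and S23 against 34.1 and 26.0 TPM in libraries WT1 and WT2 (1.02, adjusted p = 0.0127). PCDH8, an adhesion gene regulated by neuronal activity in rat, was at 0.338 and 0.273 TPM in SOX21-/- against 1.82 and 1.72 TPM in wild type (-1.08, adjusted p = 0.0201). PCDH8 reached 1 TPM only in these wild-type libraries, so it was tested through the group where it was high. The changes of PCDH18 and PCDH8 went in opposite directions, and 0 of the neighbours were called at day 0 or day 8.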

How the data were processed

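The authors deposited a table of TPM values per gene for 12 poly(A) RNA libraries, made with Salmon 0.8.2 after CASAVA 1.7 with hg38 as the genome build, according to the submitters' processing notes (per the labels). The sources used here name neither the annotation nor the strand setting. Columns of other series numbered 0. The 53 members matched GENCODE 29 (GRCh38) by identifier and version. Reads were not reanalysed, and the depth of each library is unknown.

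A gene was tested where 2 or more libraries had a TPM of 1 or more. Its log2(TPM + 1), hence a pseudocount of 1, was fitted with limma 3.58.1 (R 4.3.3) on 6 group means, with 6 residual and 2.29 prior degrees of freedom, a variance trend, two-sided tests and Benjamini-Hochberg adjustment at 0.05 over all genes tested. The script was tested on simulated data with 200 changed genes. Differences within a genotype over all days were fitted with 4 residual degrees of freedom. Members, gene lists and tests were chosen with earlier results of these data known. Named were members called between genotypes, the 3 highest members of each cluster, the C-type genes and the 5 largest called changes each way of each day step. PCDHB4, PCDHB6 and PCDHB12 were named after their values were seen. Words of 31 bases came from GENCODE transcripts and promoters from RefSeq. Line labels repeat across days, but the deviations of a label correlated at -0.00603 to 0.0712 between days over genes, and those of S13 and S23 with those of WT1 and WT2 at -0.0157 to 0.0774 within a day, so neither was treated as a pairing. Alternatives were another pseudocount (0.1), filter (TPM of 5, or none), scaling, variance model, subset of libraries and block, and each library left out. One marker list is not reported here in full.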

Additional observations from a re-analysis of the deposited data

How the results depend on the processing

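The count of members called was compared over the alternatives. At day 0 the genotype call was lost (0 members) with no filter, in fits of that day only and with number pairs as a replicate block, and at day 4 (0) in fits of that day only, of days 4 and 8 only and with that block. At day 8 it was 0 in fits of that day only and with that block, and 2 with no filter, without the variance trend, on nuclear protein-coding genes and on days 4 and 8 only. The number pairs (S13 with WT1, S23 with WT2) and days 4 and 8 only were chosen after seeing the data. The line label as a replicate block changed no count by more than 1.5 times (22 and 31 members for day 0 to day 4 in SOX21-/- and wild type). Deviations within the number pairs correlated at -0.0157 to 0.0774 within a day over all genes tested, but PCDHB2 and PCDHB3 at day 0 followed the pairs. For day 0 to day 4, SOX21-/- had 12 members with a filter at a TPM of 5 and 13 after median-of-ratios scaling, and wild type 13 and 15, with fewer members tested under that filter. After that scaling PCDHA10 (-0.0039) and PCDHB16 (-0.062) reversed in wild type; the cause was not tested. For day 4 to day 8, SOX21-/- had 2 after that scaling, 11 on nuclear protein-coding genes and 10 without the trend, and wild type 1 with a pseudocount of 0.1, 5 without the trend and 0 with number pairs as a block.

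With each library left out in turn, the counts ran from 0 to 1 at day 0, 1 to 1 at day 4 and 1 to 2 at day 8 between the genotypes, from 17 to 22 and 1 to 6 for the SOX21-/- steps, from 23 to 30 and 0 to 3 for the wild-type steps, from 0 to 1 in both intervals for the change of the genotype difference, and 0 to 0 between libraries of 1 genotype. The member called at day 0 in 1 of these was PCDHGC3, without WT2 at day 0. With 2 libraries a group and no record of depth, small differences of low members could not be resolved.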
